A study of Mus musculus with 4 samples.

Results

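The genes described here encode 9 proteases of the exocrine pancreas, namely the trypsinogens Prss2, Prss3 and Try5, the chymotrypsin-type enzymes Ctrc and Ctrl, the elastases Cela1 and Cela3b, and the carboxypeptidases Cpa1 and Cpb1. They were measured in mouse liver and spleen on 4 two-colour microarrays. Every probe was taken whose gene name in the files, or whose current symbol by RefSeq accession, was one of the 9. This gave 10 probes of 41174 on the array and 9 genes of 27670. The 9 genes were picked because earlier values of these arrays had shown them lower with the nucleoprotein diet, so their diet ratios are given as a description and carry no test.

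The mice were male C57BL/6J animals aged 7 weeks. In the nucleoprotein (NP) group a purified diet was supplemented with S-nuclegen at 1.2%, which brought nucleic acids to 0.5% of the diet. The control group had the purified diet alone, with nucleic acids at 0.03%. Feeding lasted 4 weeks in the NP group, and the labels give no feeding time for the controls. All pools compared here came from mice injected once with lipopolysaccharide (LPS), a bacterial cell wall component that triggers systemic inflammation, at 10 mg/kg, and organs were removed 6 h later. RNA was pooled within each diet, and how many mice each pool drew on is not stated in the labels. The design text names the purified diet and the housing notes CE-2 chow, and the diets here follow the design text. No mice without LPS were analysed here.

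Each array carried the NP and the control pool of 1 organ. Replicate 1 of each organ had NP in Cy5 (red) and replicate 2 had NP in Cy3 (green). The labels do not say whether both replicates held the same pools, so they were counted as 1 pool per diet and organ, and the SD over the 2 arrays was taken as labelling and array error, which may be technical alone. In each channel, 55.2% to 72.8% of the gene spots exceeded background clearly. The arrays held the labelled organs. The summed log2 level of 19 hepatocyte markers lay between 11.70 and 12.90 on spleen arrays and between 19.06 and 19.60 on liver arrays, while that of 11 B cell markers lay between 16.62 and 16.75 in spleen and between 11.54 and 12.08 in liver.

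Pancreatic acinar cells store digestive proteases as inactive zymogens and release them into the gut. There enteropeptidase cuts trypsinogen to trypsin, and trypsin activates further trypsinogen and the other zymogens. Trypsin, chymotrypsin and elastase are serine proteases that cut within proteins after basic, large hydrophobic and small residues, while carboxypeptidases are zinc enzymes that remove residues from the C-terminal end. Hepatocytes and the lymphoid cells of the spleen are not known as main sources of these enzymes.

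The trypsinogens form a family of similar genes clustered on mouse chromosome 6, so the probes behind their values are shown first. Cela3b is added because it has a large ratio and its probe, like that of Try5, was placed over more of the genome than its 60 bases (868 and 417 bases). Coordinates come from the files (build mm7, NCBI 35), and no annotation of that build was used here. These 5 probes were chosen after their values were seen, and capitals mark nothing in them.
Prss2 (A_51_P418901, chr6:41455008-41455067, plus strand): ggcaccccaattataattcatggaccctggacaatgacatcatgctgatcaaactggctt
Prss3 (A_52_P178679, chr6:41304952-41305011, minus strand): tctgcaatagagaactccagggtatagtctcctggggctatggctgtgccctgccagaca
Prss3 (A_51_P394552, chr6:41307911-41307970, minus strand): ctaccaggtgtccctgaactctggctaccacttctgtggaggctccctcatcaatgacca
Try5 (A_51_P276486, chr6:41242856-41243272, minus strand): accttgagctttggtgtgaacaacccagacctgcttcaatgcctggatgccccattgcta
Cela3b (A_51_P340456, chr4:136799520-136800387, minus strand): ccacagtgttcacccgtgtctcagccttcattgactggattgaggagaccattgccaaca

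The first Prss3 probe listed a RefSeq accession of Prss3 alone and is called specific below for that reason only. Whether it also binds other trypsinogens was not tested. The second listed accessions of 4 genes, Prss3, Try10, Prss1 and Gm5771, so its signal may come from any of these trypsinogens. The Try5 probe was found through its accession, as the file calls it 1810049H19Rik. The elastase probes carry the older names Ela1 and Ela3. The Ctrc probe was the only one of the 10 matched by its name and not by accession.

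The question of the diet comparison was which genes differ between NP-fed and control-fed mice after LPS. In liver all 9 proteases were lower in the NP pool on both arrays, by 5.25-fold (Ctrl) to 71.2-fold (Cpb1). In spleen all 9 were also lower on both arrays, by 1.57-fold (Ctrl) to 2.74-fold (Prss3). A gene was called when NP over control was past 1.5-fold (a log2 ratio of 0.58) in 1 direction on both arrays. By this bound 9 of 9 genes and 10 of 10 probes were called lower in liver, where 0.317% of 16405 measurable genes were. In spleen 8 of 9 genes were called lower, where 0.226% of 18150 measurable genes were. No protease was called higher, against 0.0122% of measurable genes in liver and 0.215% in spleen. These shares stand beside the counts for scale only, since the genes were picked on these ratios. The median ratio of the 9 genes was -4.04 in liver and -1.29 in spleen, and that of all measurable genes was 0.01 in liver and -0.00 in spleen. With median centring in place of loess, 9 of 9 proteases were called in liver and 2 of 9 in spleen, Prss3 and Try5. The median ratio of the 9 genes was then -3.74 in liver and -1.28 in spleen. Fewer cells that make these transcripts and less transcript per cell cannot be told apart in pooled organ RNA.

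**Figure D1:**
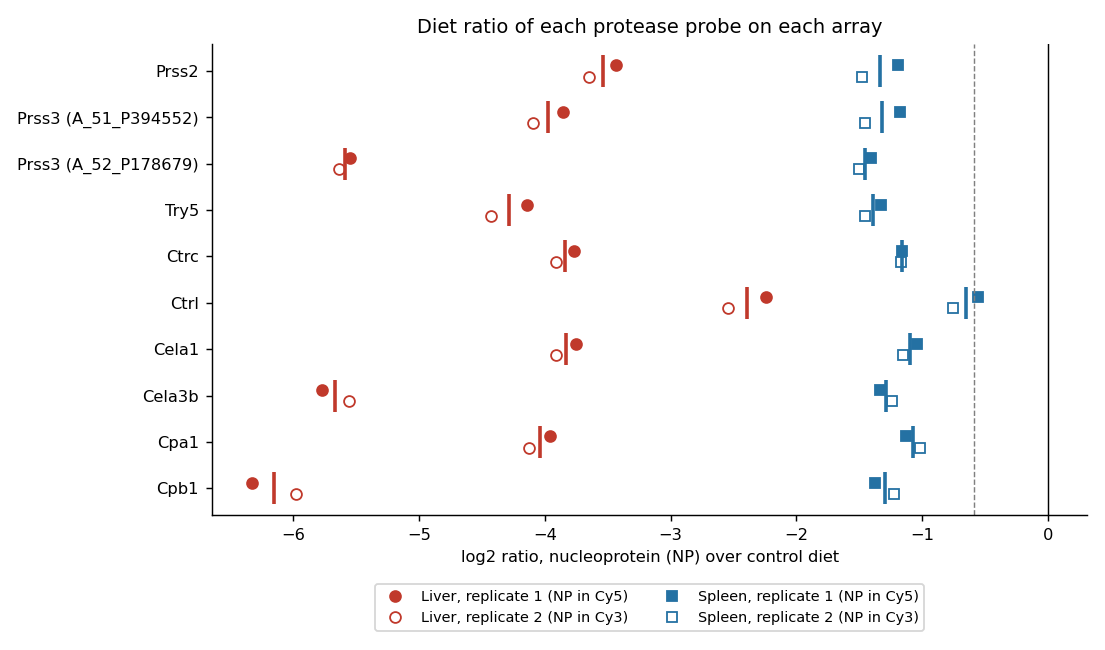
Log2 ratio of NP over control diet (horizontal axis) for each of the 10 protease probes (rows). Circles are liver and squares spleen, filled for replicate 1 (NP in Cy5) and open for replicate 2 (NP in Cy3), bars mark the mean of both arrays, and the dashed line is the 1.5-fold bound. All liver values lie left of all spleen values, and Ctrl in spleen replicate 1 (-0.56) is the only value right of the dashed line.

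Among the trypsinogens, Prss2 encodes a major anionic form. The authors' processed intensity of its probe in liver was 603 and 657 in the NP pool, against 8575 and 10433 in the control pool (replicates 1 and 2). In spleen it was 828 and 693 in the NP pool, against 2017 and 2109 in the control pool. Every NP value was below every control value in each organ. The ratio was -3.54 ± 0.15 in liver (mean ± SD, n = 2 arrays throughout), or 11.6-fold lower, and -1.33 ± 0.20 in spleen, or 2.52-fold lower.

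The specific probe of Prss3, a further trypsinogen, had liver intensities of 332 and 303 in the NP pool, against 21573 and 25176 in the control pool. Its spleen intensities were 1956 and 1541 in the NP pool, against 5329 and 4633 in the control pool. The diet pools did not overlap in either organ, and the NP pool was brighter in spleen than in liver. Its ratio was -5.59 ± 0.06 in liver, 48.3-fold lower, and -1.45 ± 0.07 in spleen, 2.74-fold lower.

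The shared Prss3 probe gave 239 and 202 in the NP pool, against 6014 and 6467 in the control pool in liver. In spleen it gave 509 and 495 in the NP pool, against 1289 and 1513 in the control pool. Again no NP value reached a control value. Its ratios were -3.97 ± 0.17 in liver and -1.32 ± 0.20 in spleen.

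Try5, a trypsinogen of the same cluster, had liver intensities of 423 and 366 in the NP pool, against 10113 and 12211 in the control pool. Its spleen intensities were 1065 and 978 in the NP pool, against 2781 and 2902 in the control pool. The NP pools were the lower ones on all 4 arrays, and that of the liver was the lowest. The ratio was -4.28 ± 0.20 in liver, 19.5-fold lower, and -1.39 ± 0.09 in spleen, 2.62-fold lower.

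The 4 trypsinogen probes agreed within 0.14 log2 units in spleen, with ratios of -1.45 to -1.32. In liver they ranged from -5.59 to -3.54, a width of 2.05. The shared Prss3 probe was less negative than the specific one by 0.23 and 0.05 on the 2 spleen arrays, and by 1.70 and 1.54 on the 2 liver arrays. The spleen difference between these 2 probes, 0.14, did not exceed the larger SD of the arrays (0.07 and 0.20), and the liver difference of 1.62 exceeded both (0.06 and 0.17). Which of the 4 listed trypsinogens the shared probe measured was not tested.

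Ctrc encodes chymotrypsin C, which cuts trypsinogens at sites that can promote or limit their activation. Its probe (chr4:141217153-141217212) had liver intensities of 1008 and 937 in the NP pool, against 16461 and 17370 in the control pool. In spleen the intensities were 2140 and 2076 in the NP pool, against 4594 and 5031 in the control pool. The pools of the diets lay apart in both organs. The ratio was -3.84 ± 0.10 in liver, 14.4-fold lower, and -1.16 ± 0.01 in spleen, 2.24-fold lower.

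Ctrl encodes a chymotrypsin-like zymogen (chr8:104531450-104531509) and had the smallest ratio of the 9 genes in both organs. In liver its intensities were 316 and 316 in the NP pool, against 2443 and 2485 in the control pool. In spleen they were 389 and 406 in the NP pool, against 627 and 689 in the control pool. The diets still did not overlap, but the spleen pools lay close together. The ratio was -2.39 ± 0.21 in liver and -0.65 ± 0.14 in spleen. The spleen arrays gave -0.56 and -0.75, and the first of these was under the bound, so Ctrl was the gene not called in spleen.

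Cela1 encodes elastase 1, an enzyme of the mouse pancreas. Its probe (chr15:100669828-100669887) had liver intensities of 278 and 204 in the NP pool, against 6413 and 5737 in the control pool. In spleen they were 711 and 770 in the NP pool, against 1663 and 1777 in the control pool. All NP values were below the control values of their organ. The ratio was -3.83 ± 0.11 in liver, 14.2-fold lower, and -1.09 ± 0.08 in spleen, 2.13-fold lower. A further probe named Ela1 in the files (chr15:100670369-100670428), an older name of Cela1, fell outside the rule. Its ratios of -3.68 ± 0.15 in liver and -1.04 ± 0.21 in spleen were 0.15 and 0.05 log2 units from those of the first probe. The liver difference was within its own SD of the arrays but exceeded that of the first probe (0.11). The spleen difference exceeded neither SD. With the deposited log ratio this probe stood at -4.96 ± 0.05 in liver, against -4.67 ± 0.20 for the first. In spleen these were -1.20 ± 0.28 and -1.22 ± 0.01.

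Cela3b encodes a further pancreatic elastase. In liver its intensities were 280 and 326 in the NP pool, against 23577 and 25521 in the control pool. In spleen they were 1987 and 2156 in the NP pool, against 5313 and 5137 in the control pool. The liver NP pool stood out as the dimmest by a wide margin, and the diets did not overlap in either organ. The ratio was -5.67 ± 0.15 in liver, 50.7-fold lower, and -1.29 ± 0.07 in spleen, 2.44-fold lower.

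Cpa1 encodes carboxypeptidase A1, which removes aromatic and aliphatic residues. Its probe (chr6:30577386-30577445) had liver intensities of 770 and 787 in the NP pool, against 14281 and 17132 in the control pool. Spleen intensities were 1549 and 1513 in the NP pool, against 3376 and 3221 in the control pool. No NP value overlapped a control value of the same organ. The ratio was -4.04 ± 0.12 in liver, 16.5-fold lower, and -1.07 ± 0.08 in spleen, 2.10-fold lower.

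Cpb1 encodes carboxypeptidase B1, which removes basic residues such as those that trypsin exposes. Its probe (chr3:19981484-19981543) had liver intensities of 308 and 223 in the NP pool, against 36678 and 27914 in the control pool. In spleen they were 3499 and 2959 in the NP pool, against 9269 and 7093 in the control pool. The liver control pool was the brightest of the 4 pools and the liver NP pool the dimmest. The ratio was -6.15 ± 0.25 in liver, 71.2-fold lower, the largest of the 9 genes. In spleen it was -1.30 ± 0.11, 2.46-fold lower.

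All 10 probes were well above background in both channels of all 4 arrays, so none of these folds is a bound set by detection. Over the 10 probes, liver intensities were 202 to 1008 in the NP pool and 2443 to 36678 in the control pool. How much of the dim NP signal came from the genes themselves was not tested, and the order of the liver folds rests on it. The lowest protease intensity was 202, in the liver NP pool, while the lowest signal called well above background in that pool was 12.3 and 25.2 on the 2 arrays. Feature Extraction's own deposited log ratios, turned to NP over control and to log2, were more negative in liver, with a median of -4.67 and a range of -6.93 to -2.96. In spleen their median was -1.33 and their range -1.52 to -0.73. The ratios above were computed after adding an offset of 50 to both channels, which draws ratios of dim spots toward 0.

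The 9 genes differed among themselves less in spleen than in liver. Their ratios spanned 0.80 log2 units in spleen and 3.76 in liver, and the SD between genes was 0.24 in spleen and 1.21 in liver. The SD between the 2 arrays of a gene was 0.01 to 0.20 in spleen and 0.06 to 0.25 in liver. Every gene had the more negative ratio in liver (9 of 9), and the spleen and liver array values of no gene overlapped (0 of 9). Spleen minus liver, the ratio differed by a median of 2.89, least for Ctrl (1.74) and most for Cpb1 (4.86). Across the 9 genes the ratios of the organs correlated at r = 0.72 (Spearman 0.50), a description over genes that share the same pools and arrays.

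Levels of the single channels, scaled between arrays, place the 4 pools in order within each probe. They are normalized log2 intensities and are compared within a probe only. In every probe the liver control pool was highest, followed by the spleen control pool, and both NP pools lay below. For Cpb1 the levels were 10.67 ± 0.08 in spleen NP, 7.87 ± 0.09 in liver NP, 11.97 ± 0.18 in spleen control and 14.02 ± 0.17 in liver control. For Prss2 the NP levels did not separate, with 8.72 ± 0.08 in spleen and 8.79 ± 0.06 in liver, and the control levels were 10.05 ± 0.12 in spleen and 12.33 ± 0.21 in liver. Ctrl was the other gene whose NP levels overlapped between organs, at 8.00 ± 0.15 in spleen and 8.20 ± 0.19 in liver.

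**Figure D2:**
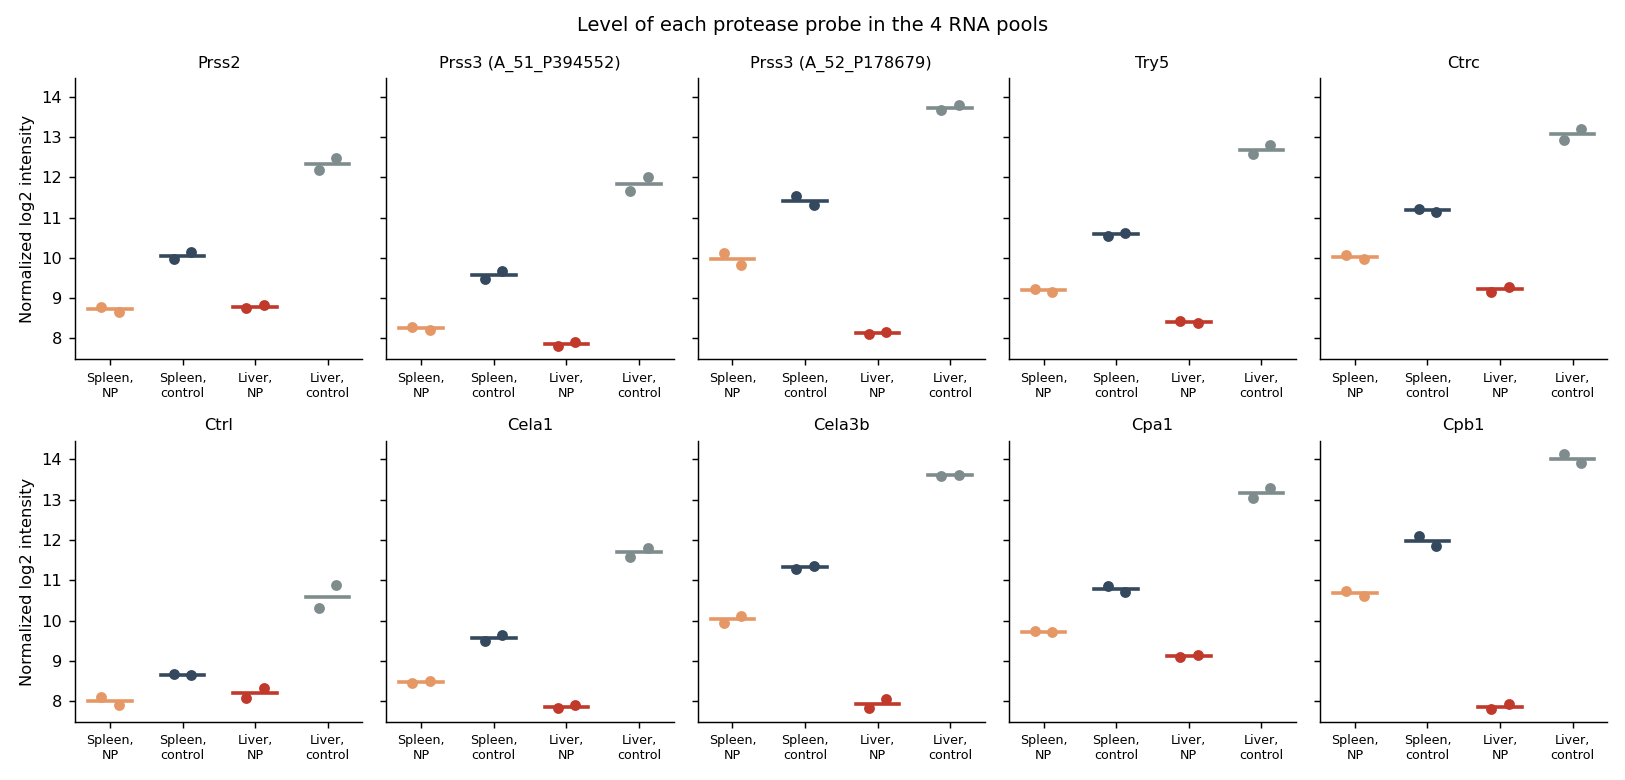
Normalized log2 intensity (vertical axis, shared by all panels) of the 10 protease probes in the NP and control pools of spleen and liver. Points are the 2 arrays and bars their mean. The liver control pool is highest in every panel and the spleen control pool next, while the NP pools of spleen and liver overlap for Prss2 and Ctrl.

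In the control pools the organs differed by nearly the same amount for every protease. Spleen minus liver lay between -2.37 (Cpa1) and -1.88 (Ctrc) over the 10 probes, a width of 0.49, and the arrays of the organs did not overlap for any probe. In the NP pools the same difference spread over 3.01 log2 units, between -0.20 (Ctrl) and 2.81 (Cpb1), and 8 of 10 probes were brighter in spleen. Cela3b (2.09) and the specific Prss3 probe (1.83) followed Cpb1, and the others lay at 0.80 or below. The zero of this comparison depends on the scaling between arrays. Without it the control differences were -1.61 to -1.13 and the NP differences 0.61 to 3.51, with 10 of 10 probes brighter in spleen. The widths of 0.49 and 2.90 were close to those with scaling.

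**Figure D3:**
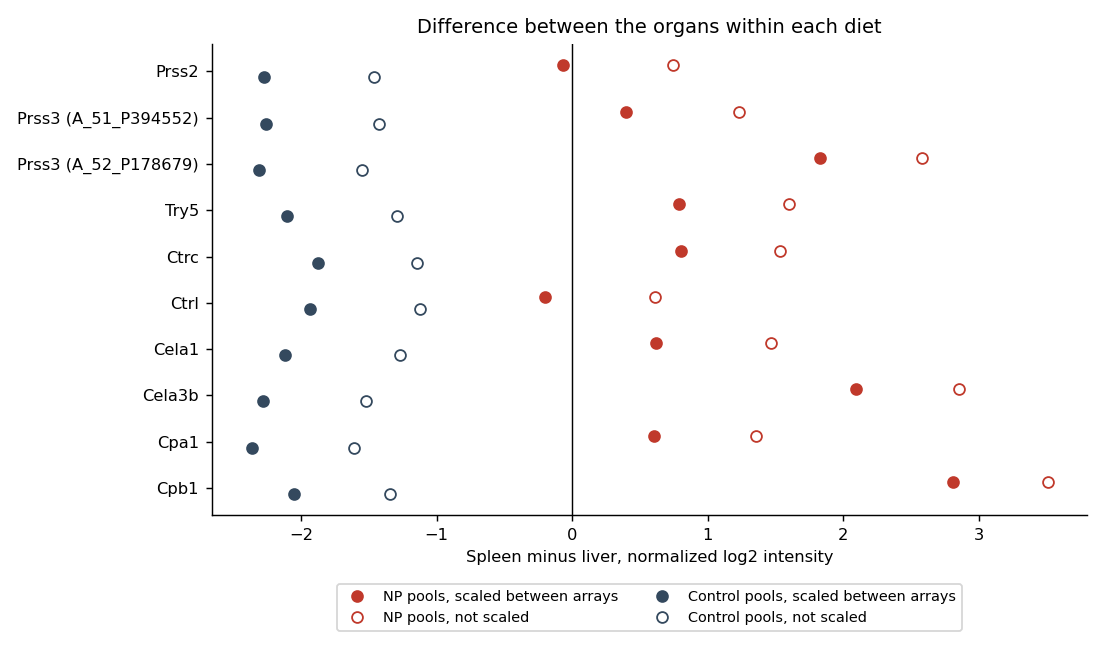
Spleen minus liver in normalized log2 intensity (horizontal axis) for each protease probe (rows), within the NP pools (red) and within the control pools (dark blue). Filled points are scaled between arrays and open points are not. The control values form a narrow band left of 0, and the NP values spread from near 0 to the right.

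Upstream sequences were examined because the genes differed together. Of the 9 genes 7 had a window in the RefSeq table of build GRCm38.p6, and 250 bases before the gene start were searched on both strands. In all 6 motif searches were made and all are given, after a first look at longer windows that held the 50 bases past the gene start. CACCTG, a form of the E-box that basic helix-loop-helix factors bind, stood in 6 of 7 windows and in 17.2% of all 32851 windows. The wider E-box CANNTG, which includes it, stood in 7 of 7 and in 66.2%. TTTCCC stood in 3 of 7 and 21.9%, its longer form TTTCCCA in 2 of 7 and 6.82%, and TATAAA in 3 of 7 and 12.4%. An E-box with CC or GC as its middle letters, or with TC, read on either strand and starting within 30 bases of TTTCCC, stood in 1 of 7, that of Cela1, and in 2.11%. A match is a description of letters and not a binding site. The windows of 4 genes are printed, chosen after the matches were seen, with CACCTG on either strand in capitals. Of the 7 windows that of Cpa1 was the one without it.
Prss2 (chr6:41521526-41521775, plus strand): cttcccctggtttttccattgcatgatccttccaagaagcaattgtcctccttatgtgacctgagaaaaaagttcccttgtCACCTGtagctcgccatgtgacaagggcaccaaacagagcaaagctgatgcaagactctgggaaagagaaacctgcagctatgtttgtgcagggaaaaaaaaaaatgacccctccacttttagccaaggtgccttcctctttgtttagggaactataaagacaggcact
Cela1 (chr15:100687921-100688170, minus strand): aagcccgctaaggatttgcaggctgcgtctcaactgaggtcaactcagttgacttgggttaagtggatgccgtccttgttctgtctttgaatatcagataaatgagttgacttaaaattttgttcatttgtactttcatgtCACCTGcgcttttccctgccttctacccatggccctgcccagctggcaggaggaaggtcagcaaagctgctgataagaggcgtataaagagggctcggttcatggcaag
Cela3b (chr4:137430521-137430770, minus strand): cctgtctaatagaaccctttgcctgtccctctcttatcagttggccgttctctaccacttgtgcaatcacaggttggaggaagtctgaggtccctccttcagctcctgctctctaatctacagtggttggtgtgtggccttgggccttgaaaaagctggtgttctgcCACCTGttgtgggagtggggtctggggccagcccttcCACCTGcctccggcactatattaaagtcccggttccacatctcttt
Cpa1 (chr6:30638968-30639217, plus strand): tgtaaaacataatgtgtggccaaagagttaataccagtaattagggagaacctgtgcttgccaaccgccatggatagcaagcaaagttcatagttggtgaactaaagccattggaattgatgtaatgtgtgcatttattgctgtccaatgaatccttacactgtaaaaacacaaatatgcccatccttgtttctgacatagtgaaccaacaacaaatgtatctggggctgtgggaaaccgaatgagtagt

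Other zymogen genes of the pancreas were read from lists of related genes. Of 4 further measurable serine protease genes in liver, 4 were called lower (against 0.317% of all measurable genes), with a list median of -2.62. These were 2210010C04Rik, entered as a zymogen, at -5.26 ± 0.41, the elastase Cela2a at -3.23 ± 0.14, the chymotrypsinogen Ctrb1 at -2.00 ± 0.51 and the glandular kallikrein Klk1 at -1.31 ± 0.36. In spleen 2 of 5 were called lower, against 0.226% of all measurable genes. These were 2210010C04Rik at -1.14 ± 0.22 and Cela2a at -1.12 ± 0.15, and the list median was -0.53. Of carboxypeptidases made elsewhere, Cpb2, which the liver secretes into plasma, stood at 0.01 ± 0.30 in liver, and the mast cell enzyme Cpa3 at 0.03 ± 0.04 in spleen, both chosen after their values were seen.

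Genes that activate or inhibit trypsin showed no shared shift, with a list median of -0.04 in each organ. Serpini2, a protease inhibitor of acinar cells, was called lower in liver (1 of 8 measurable). Its log2 ratios were -1.27 and -1.13 on the 2 arrays, a mean of 2.29-fold lower. It was not well above background in the NP pool on either array, so the size of this fold is uncertain. In spleen Ambp, the liver-made precursor of the trypsin inhibitor bikunin, was called higher at 1.16 ± 0.03 (1 of 9). Tmprss15, the enteropeptidase that starts the zymogen cascade, stood at 0.02 ± 0.08 in liver and 0.02 ± 0.14 in spleen, chosen after its values were seen. It was dim, with NP levels of 6.50 in liver and 6.40 in spleen. In the liver control pool it was well above background on 1 of 2 arrays. A ratio near 0 at such levels does not show that it was unchanged.

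Acinar genes that are not proteases were lower together with the proteases. In liver 20 of 22 measurable genes were called lower and the median was -1.76, and in spleen 11 of 22 were, with a median of -0.67. Of all measurable genes 0.317% in liver and 0.226% in spleen were called lower. On both liver arrays 15 of the 22 exceeded background clearly in the NP pool, and 22 of 22 did in the control pool. The rest were thus measurable only through the control pool, so the filter itself favoured calls of lower among them. The summed level of the 23 genes on the array was 12.91 and 12.90 in liver NP, against 16.21 and 16.23 in liver control. In spleen it was 13.14 and 12.93 in the NP pool, against 14.19 and 14.14 in the control pool. Amy2a5 was not well above background in any pool. The largest falls in liver were those of Reg1, a secreted lectin-like protein, at -5.29 ± 0.50 and Reg2 at -5.03 ± 0.58, the second well above background in the NP pool on 1 of 2 arrays.

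Of the transcription factors of acinar cells 0 of 5 measurable genes were called in either organ. Their medians were -0.09 in liver and 0.02 in spleen, and Ptf1a, the factor that defines acinar fate, was not well above background in any pool. In the liver control pool Rbpjl was dim, at a level of 6.68, with Ptf1a at 6.25. Nr5a2 (10.68) and Bhlha15 (9.02) were brighter there. Whether the signal of these genes came from acinar cells was not tested. Islet markers (0 of 6 called in each organ) and pancreatic duct markers (0 of 7 in liver and 0 of 6 in spleen) had medians within 0.03 of 0. The brightest duct markers in the liver control pool were Spp1 (12.32) and Sox9 (10.16), and which cells they came from was not tested. Of the hormone genes in the islet list, Ins1, Gcg and Ppy were not well above background in the liver pools. Sst, Iapp and Ins2 were measurable in liver, with ratios of 0.01, 0.01 and -0.04, and were named after their values were seen. They were dim, with liver control levels of 6.65, 6.74 and 6.56, and Ins1 stood at 6.21. Ins2 was well above background in the liver control pool on 1 of 2 arrays. The offset draws ratios of such dim spots toward 0, so these ratios do not show that islet transcripts were unchanged. No measurable gene was called among mast cell proteases (0 of 4 in liver, 0 of 6 in spleen) or the proteases of granulocytes and lymphocytes (0 of 7 in liver, 0 of 9 in spleen). Nor was any in liver among 3 intestinal, 4 adipocyte, 3 mesothelial and 7 B cell markers. In spleen none was called among 5 intestinal, 7 adipocyte, 5 mesothelial and 10 B cell markers. Krt8 and Krt18 of the mesothelial list and Fabp2 of the intestinal list were bright in the liver control pool (13.50, 14.25 and 13.52). Which cells their signal came from was not tested. Of the salivary list Amy1 was called, at -3.00 ± 0.09 in liver (1 of 1 measurable) and -1.46 ± 0.17 in spleen (1 of 2). Prol1, Smr3a, Prb1, Aqp5 and Dcpp1 of that list were not well above background in any pool.

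Hepatocyte markers moved in spleen, where 9 of 17 measurable genes were called higher in the NP pool, led by fibrinogen gamma (Fgg) at 2.21 ± 0.40. Of all measurable genes in spleen 0.215% were called higher. On both spleen arrays 17 markers were well above background in the NP pool and 11 in the control pool. The rest were thus measurable only through the NP pool. The summed level of the 19 markers was 12.90 and 12.81 in spleen NP, against 11.70 and 11.72 in spleen control. In liver 0 of 19 were called. The list median there was 0.40 on replicate 1 and -0.53 on replicate 2. The arrays thus differed in direction, and the lack of calls does not show that these genes were unchanged. The part of hepatocyte and acinar cells in the protease ratios was not tested.

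**Figure D4:**
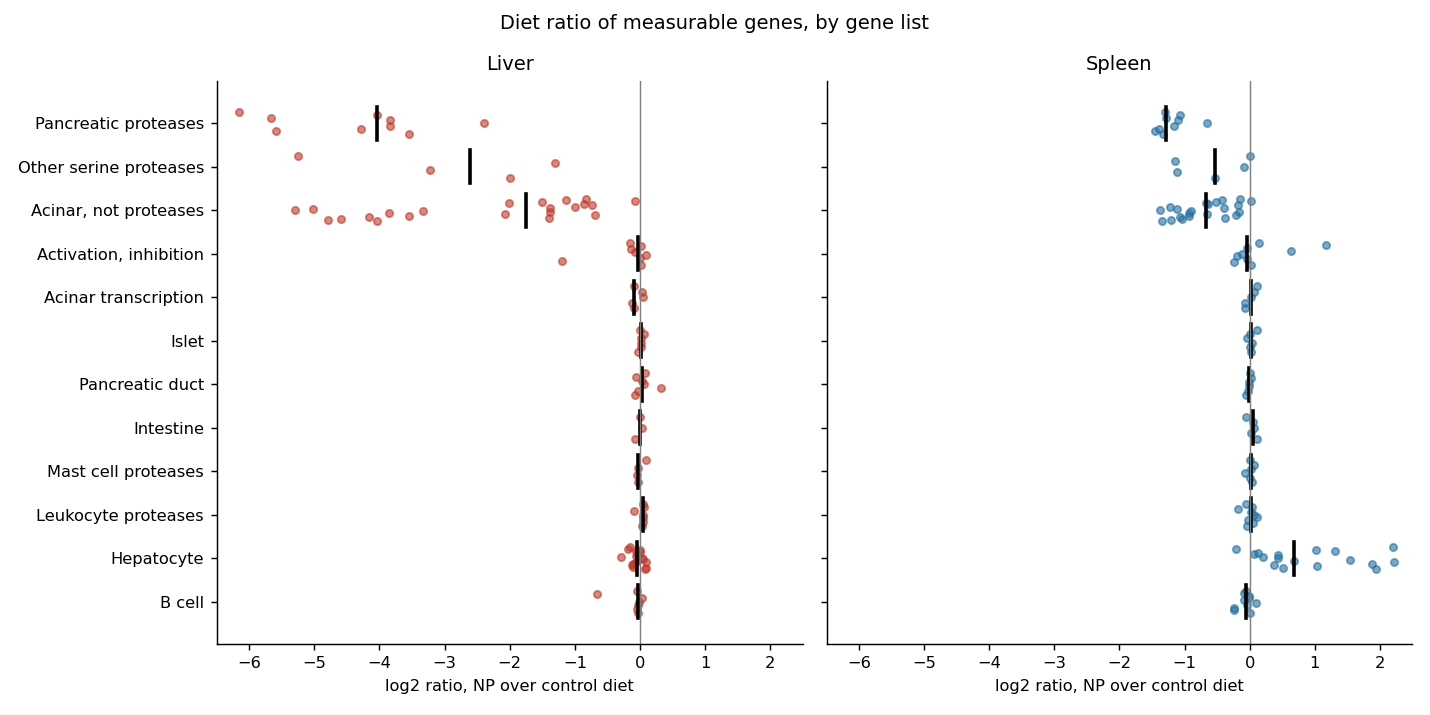
Mean log2 ratio of NP over control diet (horizontal axis) of each measurable gene in liver (left) and spleen (right), by gene list (rows). Points are genes and black bars list medians, and the carboxypeptidase, salivary, adipocyte and mesothelial lists are not drawn. Only the pancreatic enzyme lists and 1 inhibitor lie far left of 0 in liver, and in spleen hepatocyte markers extend to the right.

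The genes most like the proteases were found by the distance between their 8 channel levels, each centred on the gene's own mean, and the median profile of the 9 proteases. Among 15307 other genes measurable in both organs, the nearest included Cel, Sycn, Clps, Amy2, Pnliprp1, Pnlip, Zg16, Cela2a and Reg2. Their distances were 0.41 (Cel, a bile salt-activated lipase) to 1.20 (Reg2) log2 units, those of the 9 proteases to their own median 0.35 to 2.58, and the median of the other genes 4.55. All those named were in the lists of acinar genes and zymogens and were called lower in both organs. The calls follow largely from the distance, which uses the diet channels and a profile that is lower with NP. The lists were chosen with earlier results of these data known, so neither point is separate support. The closest, Cel, had ratios of -4.15 ± 0.26 in liver and -1.07 ± 0.08 in spleen. Sycn, the zymogen granule protein syncollin, had ratios of -3.86 ± 0.02 in liver and -0.94 ± 0.12 in spleen.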

How the data were processed

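Liver and spleen RNA, pooled by diet, was hybridised to 4 two-colour Agilent arrays on 1 slide. Per the submitters' processing notes the files came from Agilent Feature Extraction 9.5.3.1, while the file headers give step version 9.5.1.1. Per the file headers, they hold mean, background and processed intensity of each spot in both channels and the log10 ratio of red over green. The authors' deposited series table, read as a score, had sizes within 0.05 log2 units of the ratio of red over green processed intensity for 99.9% to 100% of spots well above background. Its column medians were -0.92, 0.92, -0.96 and 0.96, it was not centred, and all replicate 1 values carried a minus sign whose purpose is unknown. It was not used for the values reported here.

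Intensities were background-corrected by normexp with an offset of 50 and loess-normalized array by array without weight on control spots (limma 3.58.1, R 4.3.3). Spots called outliers (189 to 354 per array) were left out, 0 gene spots were saturated, and ratios were turned to NP over control and averaged over spots of a probe. Levels were scaled between arrays by Aquantile. Tables and figures used Python 3.11.15, pandas 2.3.3, numpy 2.4.6 and matplotlib 3.10.9. The processing was tested on simulated data.

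Probes were named through RefSeq (GRCm38.p6), 22951 by accession and 9768 by name or synonym, and 8455 kept the file's name. A gene was represented by its brightest probe. It was measurable in an organ when well above background on both arrays in at least 1 diet. With 1 pool per diet assumed, no test was made and no p-value appears, and the number of arrays limits the precision.

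The 9 proteases and the 15 gene lists were chosen with earlier results of these data known. By rule all 9 proteases and the 10 nearest genes were named, except for an item that is not reported here, and list members called in an organ could be named (at most 8 per list and organ, largest ratio first). Not every list member that could be named was. Alternatives were a normexp offset of 10, no background correction, median centring, the deposited log ratio, outlier spots kept, other filters on dim probes, the mean of all probes, a 2-fold bound, no scaling between arrays and each replicate left out.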

Additional observations from a re-analysis of the deposited data

How the results depend on the processing

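All 9 genes were called lower in liver under every setting run, and 180 of 180 single-gene ratios, each averaged over the arrays used, stayed below 0. Many of the 180 repeat the main values. Keeping outlier spots or changing the filter on dim probes left the ratios of the 9 genes as they were. The mean of all probes could change Prss3 only. On a single array, Ctrl stood at 0.005 in spleen replicate 1 with median centring. The liver median was -4.27 with an offset of 10, -3.74 with median centring and -4.67 with the deposited log ratio, and the Prss3 probe difference in liver was 1.37 with the deposited log ratio. The spleen median was -1.31 with an offset of 10, -1.33 with the deposited log ratio, and -1.22 to -1.19 with a replicate left out. In spleen 9 genes were called with an offset of 10, with the deposited log ratio and without replicate 1. With median centring 2 were, Prss3 and Try5, while the spleen median was -1.28, against -1.29 with loess. That setting applies no dye correction by intensity, and Prss3 then had -0.60 and -2.27 on the 2 spleen arrays. Without scaling between arrays the median of spleen minus liver was 1.54 in the NP pools (0.79 with scaling) and -1.35 in the control pools (-2.12 with scaling).

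Counts over all genes depended more on the setting. In liver 2 genes were called higher and 52 lower, against 0 and 32 with median centring, 28 and 106 with the deposited log ratio, 30 and 260 without replicate 1, 196 and 98 without replicate 2, and 0 and 35 at 2-fold. The share of calls that were higher was 3.70%, against 20.9% with the deposited log ratio and 66.7% without replicate 2. In spleen 39 were higher and 41 lower, against 66 and 54 with an offset of 10, 30 and 10 with median centring (75.0% higher against 48.8%), 102 and 81 with the deposited log ratio, 52 and 88 without replicate 1, 59 and 58 without replicate 2, and 21 and 18 at 2-fold. The all-gene liver median was 0.17 with median centring. Past the bound in opposite directions on the 2 arrays were 74 genes in liver and 4 in spleen, none of them one of the 9. Each ratio already pairs NP and control RNA on 1 array. No paired analysis was possible because these ratios come from no test, the arrays of an organ being read as a dye swap of 1 pool per diet, which the labels leave unsettled.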
